A study of Canis lupus familiaris with 4 samples.

Results

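Captured DNA methylation at 9 genes of the doxorubicin target and its damage response was examined in CLBL-1, a dog cell line from a diffuse large B-cell lymphoma, and in CLBL-1 8.0, its doxorubicin-resistant derivative. The genes are TOP2A, TOP2B, TOP1, TDP1, TDP2, MDM2, MDM4, CDKN1A and ATM, and their regions are the rows of the authors' tables that carry one of these symbols. They amount to 6 of the 82247 regions listed for CLBL-1 and 14 of the 123421 listed for CLBL-1 8.0. TOP2B had no region under its symbol in either table, so the regions belong to the other 8 genes.

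CLBL-1 is labelled as not chemoresistant, and CLBL-1 8.0 was kept in medium with 8 µM doxorubicin. Both are labelled as lymph node cells of the same tumour stage and were grown in the same serum-supplemented medium otherwise. MethylCap-seq, in which a methyl-binding domain protein pulls down methylated fragments for sequencing, gave 1 low salt and 1 high salt library per line, and the authors report 1 list of enriched regions per line. Each line was thus measured once, its libraries are not replicates, so the differences below come without a replicate check or p-value. Read numbers are not part of the tables, so the depth is unknown and a region missing from a list does not show unmethylated DNA. The tables hold no expression values, so the lymphoma identity of the cells could not be checked against markers.

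Doxorubicin binds DNA and traps topoisomerase II, an enzyme that passes one duplex through a cut in another, on the ends of the break it has made. The trapped complexes are turned into open breaks, which activate the kinase ATM and through it the transcription factor p53. MDM2 and MDM4 hold p53 in check, and CDKN1A, a target of p53, stops the cell cycle. Promoter methylation usually goes with low expression, while methylation inside a gene has no single relation to it.

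More of these genes' regions were listed in the resistant line, and all of the parental line's regions were found there again. Each of the 6 CLBL-1 regions shared at least 1 bp with a CLBL-1 8.0 region, where 91.0% of all CLBL-1 regions did. Of the 14 regions in CLBL-1 8.0, 6 had a counterpart in CLBL-1 (42.9%, exact Clopper-Pearson 95% interval 17.7 to 71.1), where 61.6% of that whole list did. TOP1, TDP1, TDP2, MDM2 and ATM had more regions in CLBL-1 8.0, TOP2A, MDM4 and CDKN1A had as many in both lists, as did 19.4% of all genes described next, and none of the 9 had more in CLBL-1. Over 17395 named protein-coding dog genes, 51.1% had more regions in CLBL-1 8.0 and 6.95% had more in CLBL-1, so a share of 5 in 9 lies close to that of genes in general. Of the 17395, 22.6% had no region in either list. These include any gene carried there under an older symbol that was not replaced, so the background shares may be too low. The median difference per gene was 1 region for the 9 genes and 1 for all 17395.

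**Figure D1:**
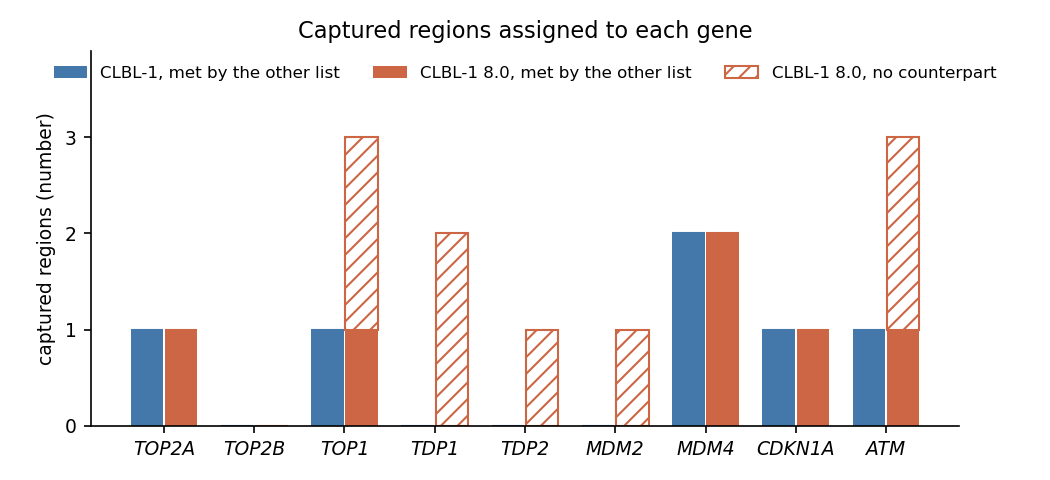
Number of captured regions assigned to each of the 9 genes (x axis) in the CLBL-1 list (blue) and the CLBL-1 8.0 list (orange). Filled bars are regions that met a region of the other list and hatched bars are regions without a counterpart, of which there were 8, all in CLBL-1 8.0.

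Topoisomerase II is the direct target of doxorubicin. TOP2A encodes the form of topoisomerase II found in dividing cells. It had 1 region in each list, downstream of the gene on chromosome 9, at 22239888 to 22240189 in the parental line and 22239896 to 22240175 in the resistant one. These regions began more than 32 kb past the transcription start and lay outside CpG islands and shores, the flanks of islands. The fold enrichment, the authors' linear ratio for each region, was 5.43 in CLBL-1 and 5.47 in CLBL-1 8.0. Such folds are read only within their own list, where they stood at percentiles 44.4 and 59.2. The nearest region of any gene to the TOP2A start was this downstream one in both lists, so no captured region was listed at the promoter or in the body of the gene.

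TOP2B encodes the second topoisomerase II, which is also present in cells that do not divide. In the dog RefSeq annotation, which is on another assembly and was used for gene order only, TOP2B lies between NGLY1 and RARB. Between the regions of these neighbours on chromosome 23, CLBL-1 had 1 region, at 18148162 to 18148501 with a fold of 10.2. CLBL-1 8.0 had a matching one at 18148223 to 18148530 (fold 5.70) and another at 18113769 to 18114156 (fold 4.43). All were classed as intergenic by the authors, and whether any of them falls in TOP2B cannot be told from the tables. RARB, the retinoic acid receptor gene on one side, had 10 and 11 regions, and NGLY1 on the other side had 0 and 1.

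TOP1 encodes topoisomerase I, which cuts a single strand and is the target of camptothecins rather than of doxorubicin. It was the only one of the 9 genes with a promoter region in both lists, meaning a region that the authors flagged within 3000 bp upstream of the start or at the start itself. On chromosome 24 this region ran from 29073900 to 29074716 in CLBL-1 and, in CLBL-1 8.0, from 29073602 to 29074702, with 803 bp in common, and it lay on a CpG island shore. Its near edge was 551 bp from the transcription start in CLBL-1 and 565 bp in CLBL-1 8.0. The folds were 7.12 and 6.33. CLBL-1 8.0 had 2 further regions inside introns, at 29091092 to 29091389 (fold 6.33) and 29108263 to 29108536 (fold 4.75). Both lay outside islands and shores, and the nearest CLBL-1 region of any gene was 16.4 and 33.5 kb away.

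The tyrosyl-DNA phosphodiesterases remove topoisomerase remnants from DNA ends, TDP1 chiefly those of topoisomerase I and TDP2 chiefly those of topoisomerase II. Neither gene had a region in CLBL-1, and both were listed in CLBL-1 8.0, a pattern shared by 14.4% of the 17395 genes. TDP1 had 2 intronic regions on chromosome 8, at 61075787 to 61076108 (fold 7.60) and 61091485 to 61091851 (fold 6.33). They stood at percentiles 81.5 and 70.6 of that list, and the nearest CLBL-1 regions lay 49.1 and 33.4 kb away. TDP2 had 1 region, flagged as promoter, on chromosome 35 at 22709534 to 22709798, with a fold of 5.70 at percentile 62.3. Its near edge was 2480 bp and its far edge 2744 bp upstream of the start, outside islands and shores. ACOT13, the next gene to TDP2 in RefSeq order, had no region in either list.

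MDM2 and MDM4 encode related proteins that bind and inhibit p53, and MDM2 also marks it for degradation. MDM2 had 1 region, listed in CLBL-1 8.0 and not in CLBL-1, on chromosome 10 at 10934422 to 10934790. Its near edge was 1498 bp and its far edge 1866 bp upstream of the start, on an island shore, and it carried the flags for promoter and enhancer. It was 1 enhancer-flagged region among 14, where 5.07% of the whole list carried that flag. Its fold was 6.96, at percentile 76.8 of the list. The nearest CLBL-1 region was 17.6 kb away and assigned to no gene. MDM2 and TDP2 were the genes with a promoter region in CLBL-1 8.0 only, 2 of 9, where 9.34% of the 17395 genes had that pattern and 2.41% the opposite one.

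MDM4 had 2 intronic regions in each list on chromosome 38, and each met one of the other list. The first ran from 1082021 to 1082807 in CLBL-1, outside islands and shores, with a fold of 13.2. In CLBL-1 8.0 it was shorter, from 1082422 to 1082786, with a fold of 11.4, so that 365 bp of the 787 bp in CLBL-1 were in common. The second, on an island shore, ran from 1120031 to 1120885 in CLBL-1 (fold 14.6) and, in CLBL-1 8.0, from 1119904 to 1120931 (fold 9.54). All 4 folds lay between percentiles 87.5 and 94.9 of their lists, among the higher ones of these genes.

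CDKN1A encodes p21, the inhibitor of cyclin-dependent kinases through which p53 halts the cell cycle. Its 1 region per list lay in an intron on an island shore of chromosome 12, at 5751482 to 5752207 in the parental line and 5751547 to 5752306 in the resistant one, with 661 bp in common. The region began 4584 bp past the start in the parental line and 4649 bp in the resistant line. The folds were 18.2 and 14.8, the highest of the 9 genes in each list, at percentiles 97.5 and 98.7. No promoter region of CDKN1A was listed in either line.

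ATM encodes the kinase that responds to double-strand breaks. The lists shared 1 intronic region on chromosome 5, at 24292052 to 24292372 in CLBL-1 (fold 5.43) and 24292000 to 24292425 in CLBL-1 8.0 (fold 8.79). The CLBL-1 region lay wholly inside the CLBL-1 8.0 region. These folds stood at percentiles 44.4 and 87.6 of their lists. CLBL-1 8.0 had 2 more intronic regions. One, at 24293473 to 24293821 (fold 4.38), was 1.10 kb from the CLBL-1 region, and the other, at 24198807 to 24199065 (fold 3.80), was 93.0 kb away. All ATM regions lay outside islands and shores, and none was flagged as promoter.

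**Figure D2:**
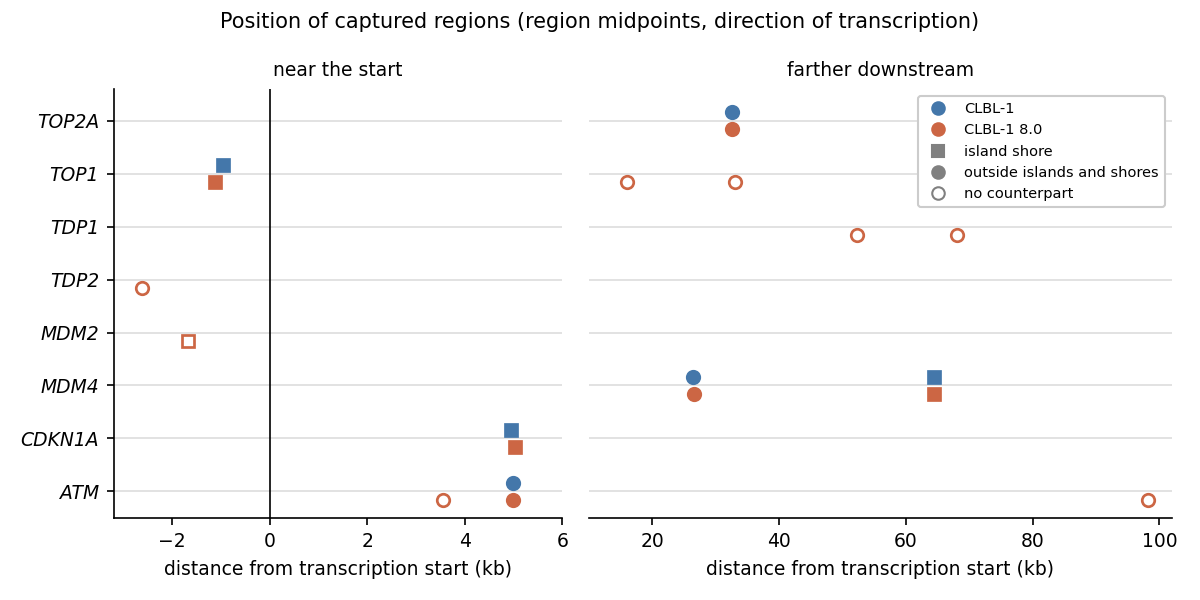
Midpoint of each captured region relative to the transcription start of its gene, in kb along the direction of transcription, near the start (left) and farther downstream (right, different scale). Blue is CLBL-1 and orange CLBL-1 8.0, squares are island shores, circles lie outside islands and shores, and open symbols have no counterpart in the other list. The regions nearest to a start are those of TOP1 in both lists, and no region lies on a start.

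Most regions of the 9 genes were intronic. None of the 20 was flagged for a CpG island or a transcription start, or classed as coding sequence or an untranslated region. Each region carries a single location class, so whether an intronic one also covers an exon was not tested. Of all gene-assigned regions in CLBL-1 and CLBL-1 8.0, islands held 14.7% and 10.6%, transcription starts 7.41% and 4.88%, and coding sequence 12.0% and 10.6%. The 5' untranslated regions held 3.78% and 3.02%, and the 3' ones 5.15% and 4.42%. With so few regions a count of 0 allows up to 45.9% of 6 and 23.2% of 14 (upper exact 95% limits), so these zeros do not set the 9 genes apart. Introns held 4 of the 6 parental regions and 10 of the 14 in the resistant line, or 71.4% (41.9 to 91.6) of the latter, where introns held 54.1% and 59.6% of all gene-assigned regions in the respective lists. Outside islands and shores were 3 of 6 in CLBL-1, against 46.8% of its whole list, and 10 of 14 in CLBL-1 8.0, or 71.4% (41.9 to 91.6) against 62.5%. The exact intervals, which cover counting error only, include the whole-list shares. A promoter region was listed for 1 of 9 genes in the parental line and 3 of 9 in the resistant one, where 28.8% and 35.7% of the 17395 genes had one. Any region was listed for 5 and 8 of the 9, against 63.0% and 76.3%.

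The 8 regions listed in CLBL-1 8.0 only had a shorter median length than the shared ones. They were 259 to 369 bp long, with a median of 310 bp, while the 6 shared regions of CLBL-1 8.0 were 280 to 1101 bp long with a median of 593 bp. The medians lay in the same order over the whole list, where regions without a counterpart had a median of 315 bp and shared ones 569 bp. Of the 8, 7 lay outside islands and shores (87.5%), where 88.7% of all CLBL-1 8.0 regions without a counterpart did. The exception was the MDM2 promoter region. Their folds ran from 3.80 to 7.60 with a median of 6.01, and those of the 6 shared regions from 5.47 to 14.8 with a median of 9.16. The ranges overlap, and the medians lay in the same order over the whole list, at 4.75 and 5.41.

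**Figure D3:**
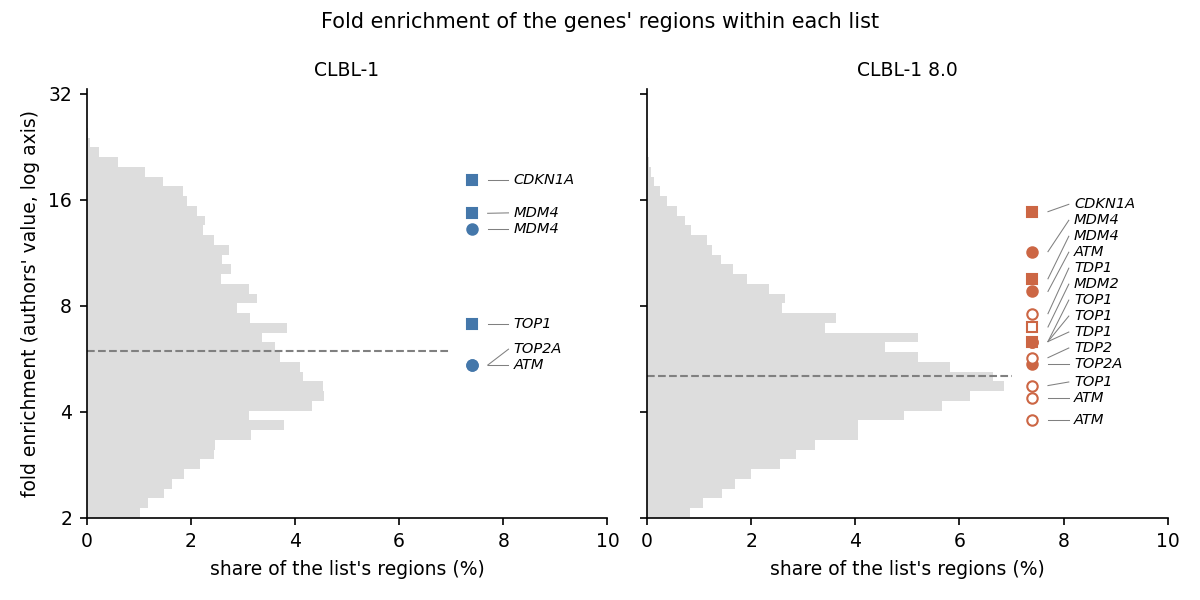
Fold enrichment of each region of the 9 genes (symbols with gene names, log axis) beside the distribution of all folds in its list (grey, share of regions per bin of the log axis), for CLBL-1 (left) and CLBL-1 8.0 (right). Squares are island shores, open symbols have no counterpart in the other list, and the dashed line is the list's median (5.95 and 5.06). Among the 9 genes, CDKN1A has the highest fold in both lists, and the 8 regions without a counterpart lie between 3.80 and 7.60.

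The surroundings of the genes also held more regions in CLBL-1 8.0. Within 500 kb of the transcription start, whichever gene a region was assigned to, there were 17 (ATM) to 49 (TDP1) CLBL-1 regions and 36 (ATM) to 90 (CDKN1A) CLBL-1 8.0 regions. The ratio of CLBL-1 8.0 to CLBL-1 regions ran from 1.38 around MDM4 to 2.14 around CDKN1A, with a median of 1.83 over 8 genes, and 1.50 for the whole lists. It was above the whole-list ratio around every one of the 8 except MDM4. Windows around other genes were not counted, so the share of all genes with such a ratio is unknown. TDP1, TDP2 and MDM2 entered only through regions listed in CLBL-1 8.0, and TOP2B had no start to use. With each gene's own regions left out, the ratio was 2.06 around ATM, 1.95 around TDP2, 1.83 around MDM2, 1.76 around TDP1 and 1.64 around TOP1, the 5 genes with more regions in CLBL-1 8.0. CDKN1A and TOP2A, with equal numbers in both lists, stood in surroundings with ratios of 2.17 and 1.63. How far the surroundings account for the genes' own numbers was not tested.

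**Figure D4:**
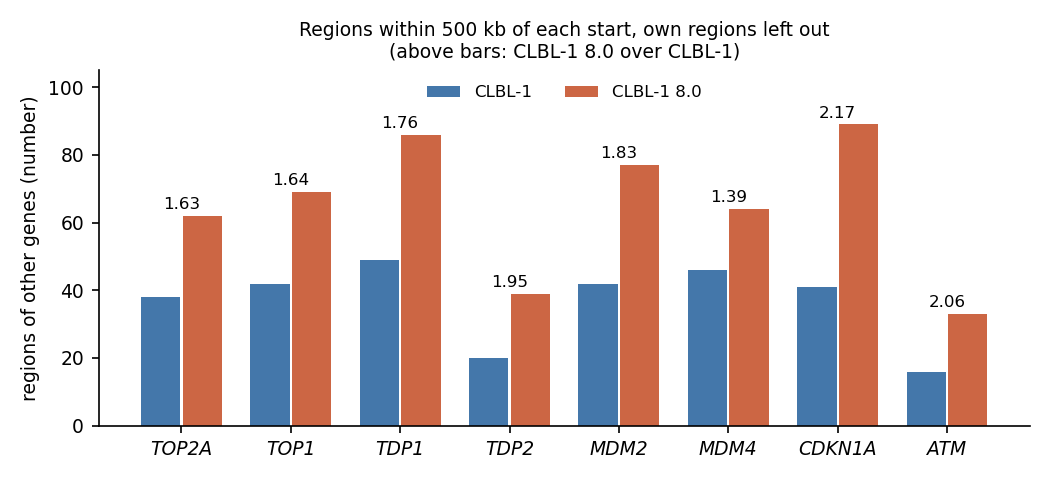
Regions within 500 kb of the transcription start of 8 genes in the CLBL-1 (blue) and CLBL-1 8.0 (orange) lists, with the gene's own regions left out. The number above each pair is the ratio of CLBL-1 8.0 to CLBL-1, which is lowest around MDM4 at 1.39 and highest around CDKN1A at 2.17.

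Related genes were examined through 4 lists. Of 26 further topoisomerase and break repair genes, 22 (84.6%) had more regions in CLBL-1 8.0, 4 had equal numbers and none had more in CLBL-1. Over the 17395 genes, 51.1% had more in CLBL-1 8.0 and 6.95% had more in CLBL-1. All 26 had a region in CLBL-1 8.0, while 22.6% of the 17395 genes had none in either list, so the 2 shares are not over like genes. The median difference was 2.5 regions, where the 17395 genes had 1. NHEJ1, an end-joining factor, went from 2 to 10 regions, BLM, a helicase, from 3 to 9, and PARP1, a break sensor, from 4 to 10. Gene length, which bears on such numbers, was not matched in any of the 4 lists. Promoter regions were listed for 4 and 6 of the 26 (15.4% and 23.1%), against 28.8% and 35.7% of the 17395 genes. Those in CLBL-1 8.0 only were at WRN, a helicase gene (fold 8.86, on a shore 1130 bp upstream), XRCC5, which encodes Ku80 (fold 3.48), and RMI2, a partner of BLM (fold 4.30). That of XRCC1, a single-strand break repair scaffold, was in CLBL-1 only (fold 4.41). None of these 4 met a region of the other list.

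Of 21 damage signalling genes, 16 (76.2%) had more regions in CLBL-1 8.0, against 51.1% of the 17395 genes. Of the others, 1 had more in CLBL-1, 2 had equal numbers and 2 had none. HIPK2, a kinase that acts on p53, went from 23 to 30, RNF168, a ubiquitin ligase at breaks, from 0 to 5, and BRCA1, a repair factor, from 1 to 5. WEE1, a cell cycle kinase, went from 1 region to 0. Promoter regions were listed for 1 and 3 of the 21 (4.76% and 14.3%), against 28.8% and 35.7% of the 17395 genes. Those of RNF8, a ubiquitin ligase (fold 5.38), and RAD9A, a checkpoint clamp subunit (fold 6.28), were in CLBL-1 8.0 only.

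Of 11 p53 family members and regulators, 6 (54.5%) had more regions in CLBL-1 8.0, close to the 51.1% of the 17395 genes. Of the others, 2 had equal numbers and 3 had none. COP1, a ubiquitin ligase listed under its older symbol, went from 0 to 5 regions, TP73, a p53 relative, from 12 to 16, and SIAH1, another ligase, from 2 to 4. USP7, which removes ubiquitin from MDM2 and p53, had 11 regions in each list and a promoter region in CLBL-1 8.0 only (fold 5.68, 1925 bp upstream). Promoter regions were listed for 2 and 3 of the 11 (18.2% and 27.3%), against 28.8% and 35.7% of the 17395 genes.

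Of 27 p53 target genes, 17 (63.0%) had more regions in CLBL-1 8.0, against 51.1% of the 17395 genes. Of the others, 2 had more in CLBL-1, 4 had equal numbers and 4 had none. POLK, a translesion polymerase, went from 0 to 5 regions and FAS, a death receptor, from 8 to 11. BTG2, an anti-proliferative gene, and PLK3, a stress kinase, each went from 1 region to 0. Promoter regions were listed for 6 and 9 of the 27 (22.2% and 33.3%), against 28.8% and 35.7% of the 17395 genes. Those in CLBL-1 8.0 only included FAS (fold 2.68, in an island) and SFN, which encodes a 14-3-3 protein (fold 9.26). The SFN region met a CLBL-1 region, and the FAS region met none.

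**Figure D5:**
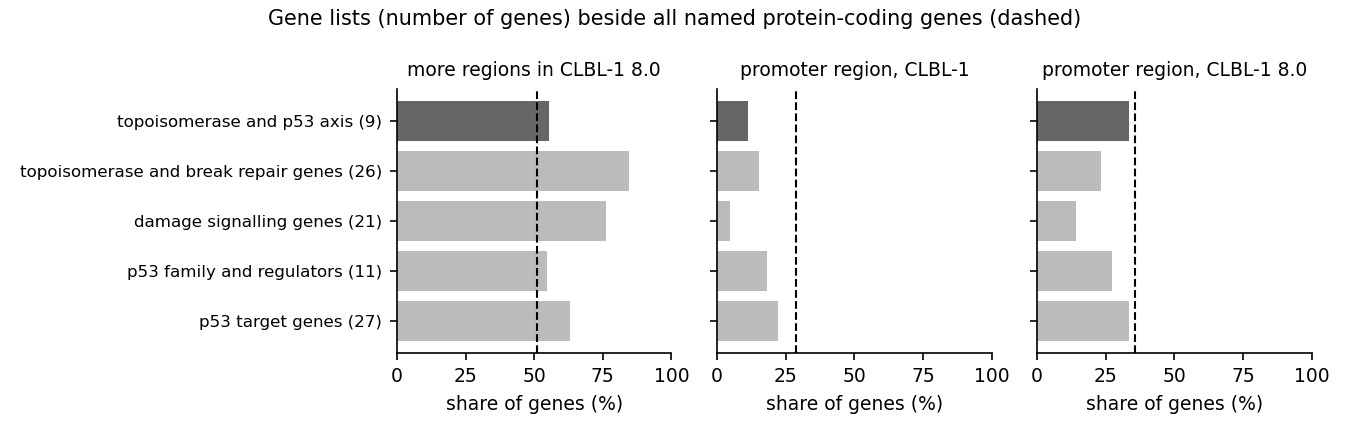
Share of genes with more regions in CLBL-1 8.0 (left), with a promoter region in CLBL-1 (middle) and with a promoter region in CLBL-1 8.0 (right), for the 9 genes (dark) and 4 lists of related genes, with the number of genes in brackets. Dashed lines are the shares over 17395 named protein-coding genes, at 51.1%, 28.8% and 35.7%, and all bars for promoter regions end below their dashed line.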

How the data were processed

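MethylCap-seq libraries of CLBL-1 and CLBL-1 8.0 were eluted at low and at high salt, 4 libraries in 4 groups of 1. BWA, MACS2 and CanFam3.1 are named, per the submitters' processing notes, without version or setting. The deposited tables hold 1 list of regions per line with the nearest gene, its distance, location and CpG flags, and a fold enrichment, which is the authors' linear ratio, per the file headers. Its background, and whether eluates were pooled, are not stated in the labels or headers. Coordinates are as in the tables, with both ends counted, and whether positions start at 0 or 1 is not stated.

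Regions were taken by gene symbol. Rows with displaced cells (2 and 6) were given no gene. Overlap used bedtools 2.31.1 with at least 1 bp, tested on simulated regions. Intervals are exact Clopper-Pearson, at 95% (scipy 1.17.1). Other steps used Python 3.11.15, numpy 2.4.6, pandas 2.3.3 and matplotlib 3.10.9. Background shares are over 17395 protein-coding gene names in RefSeq for the dog assembly UU_Cfam_GSD_1.0, used for names and gene order, which include all 9 genes and 85 of 89 related genes. Older symbols were replaced for some genes, COP1 among them. Any other gene carried under an older symbol counts as having no region. The 9 genes and the lists were chosen with earlier results of these data known. Of the related genes, those with a promoter region in 1 list only are named, and the 3 with the largest difference in region number in each direction, ties in alphabetical order. Where the rule gave a further gene, it is not reported here. BRCA1 tied with CLSPN, and FAS with SESN2, XPC and ZMAT3. Alternatives changed the fold limit, the list length, the gene assignment, the overlap and the promoter definition. Sequences of the regions were not analysed here.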

Additional observations from a re-analysis of the deposited data

How the results depend on the processing

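The 9 genes kept more regions in CLBL-1 8.0 than in CLBL-1 under each alternative run. Their numbers were 6 and 11 above the pooled median fold of 5.28, 4 and 11 above each list's own median, 6 and 13 with lists of equal length. The pooled limit lies below the median of CLBL-1 (5.95) and above that of CLBL-1 8.0 (5.06). It thus cuts the lists unequally, and folds of the 2 lists are not on a shared scale. Counting regions of any gene between the first and last listed region of each gene gave 6 and 14 again. These stretches come from the regions themselves, not from an annotation, and TOP2B has none, so this checks only the naming of regions in between. Genes with more regions in CLBL-1 8.0 numbered from 4 to 6 and with more in CLBL-1 0 throughout. Under these fold limits, list lengths and gene assignments, shares over all genes were not computed. Whether the 9 genes differ there from genes in general was therefore not tested. ATM moved most: its difference of 2 regions went to 0 above the pooled median, 1 above its own list's median and 1 with equal lists. Its further regions have folds of 3.80 and 4.38, below the pooled median, and its CLBL-1 region lies below that list's own median. The TOP2A difference of 0 became 1 above each list's own median, since its CLBL-1 region lies below it, and that of TOP1 fell from 2 to 1 above both medians. With at least 0.5 of both regions in common, 5 of the 6 shared regions remained, the first MDM4 region being lost, and a gap of up to 500 bp added none. Counting as promoter only regions whose start coordinate lies within 1000 bp of the transcription start, the number of genes was 0 in CLBL-1 and 0 in CLBL-1 8.0, against 1 and 3. All promoter regions of these genes have start coordinates farther upstream. This rests on the edge used, as the near edge of the TOP1 region was 551 and 565 bp from the transcription start, within that limit in both lists. No paired analysis was possible because the groups hold single libraries, without replicates to pair. Depth is unknown, so a missing region may be an undetected one.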

Other observations

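Folds in the tables may hold some information on depth, which stays unknown without read numbers. Part of the folds are whole multiples, within 2e-05, of a fixed step, which is 0.339 in CLBL-1 (18.4% of its folds) and 0.317 in CLBL-1 8.0 (24.8%). Among the regions of the 9 genes, 4 of 6 in CLBL-1 (66.7%, 22.3 to 95.7) and 8 of 14 in CLBL-1 8.0 (57.1%, 28.9 to 82.3) were whole multiples. Both intervals lie above the whole-list shares of 18.4% and 24.8%. In CLBL-1 8.0 the comparison is not like for like. There 42.9% of the genes' regions had a counterpart, against 61.6% of the whole list, and regions without one were whole multiples more often (47.7%). The reason for the higher shares was not tested. Of the 8 regions in CLBL-1 8.0 only, 7 were (87.5%, 47.3 to 99.7), all but the ATM region at 24293473. The share was 47.7% over all CLBL-1 8.0 regions without a counterpart, which lies inside that interval, as does the 51.6% of those outside islands and shores. MACS2 by default adds 1 to the fragment pileup and to the background before dividing. If the authors kept that default, which is not known, the multiple less 1 is the number of overlapping fragments, over a background of 1.95 fragments in CLBL-1 and 2.16 in CLBL-1 8.0. Then the MDM2 promoter region would rest on 21 fragments, that of TDP2 on 17, the TDP1 regions on 23 and 19, the intronic TOP1 regions on 19 and 14, and the far ATM region on 11. TOP2A and ATM, whose folds in CLBL-1 were equal, would each rest on 15 there.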
